A study of Mus musculus with 2 samples.

Results

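The genes described here build and load the primary cilium, a single antenna-like projection carried by most cells of an embryo. They were chosen by name, with earlier results of these data known. The 40 include genes for intraflagellar transport (IFT) subunits, the BBSome and its helpers, and ciliary motors. The others encode ciliary regulators of hedgehog signalling and proteins of the basal body and transition zone. All 40 were found by identifier among the 43346 Ensembl genes of the tables. The tissue was limb of healthy B6NCrl mice, a strain of embryos taken here at day 12.5 of development, with no genetic change and no treatment named in the labels. Total RNA was measured in 1 group of 2 biological replicates, a pool of limbs from 88 embryos for replicate 1 and from 68 embryos for replicate 2. Both pools held both sexes, and each library started from 10 ng of RNA longer than 200 nt. Forelimb and hindlimb are not separated, and the labels give no other condition, so the comparisons are between genes and between the libraries.

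IFT trains carry cargo along the axoneme: IFT-B, with the motor kinesin-II, moves towards the ciliary tip, and IFT-A, with the motor dynein-2, moves back to the base. The BBSome is a coat-like complex that links membrane proteins to these trains, and its loss causes Bardet-Biedl syndrome, in which extra digits are common. In the limb, hedgehog signals are read in the cilium, where the Gli factors are processed, so that loss of many of these genes disturbs digit number and pattern.

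The expected counts (reads assigned to a gene by the authors' quantifier, fractional where reads are shared) summed to 29810026 in replicate 1 and 29938721 in replicate 2. The 40 genes took 40725 of them in replicate 1, or 0.137% (95% exact interval 0.135 to 0.138), and 41421 in replicate 2, or 0.138% (0.137 to 0.140). Levels are given in TPM, a unit scaled for gene length and for the sum over all rows of a library. All 8 limb markers were above 1 TPM in each pool, from Msx1 (395) down to the forelimb gene Tbx5 (29.6). Some markers differed between the libraries: Tbx5 stood at 35.17 TPM in replicate 1 and 24.11 in replicate 2, while the hindlimb genes Tbx4 (32.27 and 37.14) and Pitx1 (142.42 and 172.9) were higher in replicate 2. The 8 neuron markers summed to 54.0 and 73.0 TPM. By the exact binomial test described further on, 6 of them were higher in replicate 2 at an adjusted p under 0.05. The share of all genes in that direction was 6.95%. Of the 8, 3 also differed 2-fold or more, against 1.71% of all genes. The most abundant of them, Gap43, stood at 24.42 and 22.63 and did not pass. The part of these markers in the results on cilium genes was not tested. In bulk tissue, fewer cells of a type and less RNA per cell cannot be told apart.

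Every one of the 40 genes had 1 TPM or more in each library, the threshold used for detection, against 59.2% of the 21474 protein-coding genes. The 40 were chosen with earlier results of these data known, so their detection is a description only. Their median was 20.5 TPM (19.8 in replicate 1 and 20.9 in replicate 2), beside 21.9 for the 12702 detected protein-coding genes, and 18 of the 40 lay above that value. Their levels spanned 62.8-fold, from Ift46 at 119 ± 8.33 TPM (SD, n = 2) to Gpr161 at 1.90 ± 0.0495. Ift46 (ENSMUSG00000002031.7) lies on chromosome 9 of mm10 at 44767908 to 44793447 on the plus strand, and Gpr161 (ENSMUSG00000040836.11) on chromosome 1 at 165295789 to 165326745, also on the plus strand. At 10 TPM or more stood 30 genes, and at 50 TPM or more stood 5: Ift46, Ift20, Ift27, Kif3a and Ift43. In the order of levels, 24 of the 39 pairs of neighbours were separated, meaning that both libraries of the higher gene lay above both libraries of the lower one.

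Short genes led that order. Across the 40 genes, the length used for scaling and the TPM had a Spearman correlation of -0.69, against -0.28 across the detected protein-coding genes, while length and counts had -0.01. These are descriptions over genes of the same libraries, and length is part of how TPM is computed. Ift172, for example, had the most counts of the 40 (2298 and 2238) over a length of 5407 nt and ranked 18 by TPM.

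**Figure D1:**
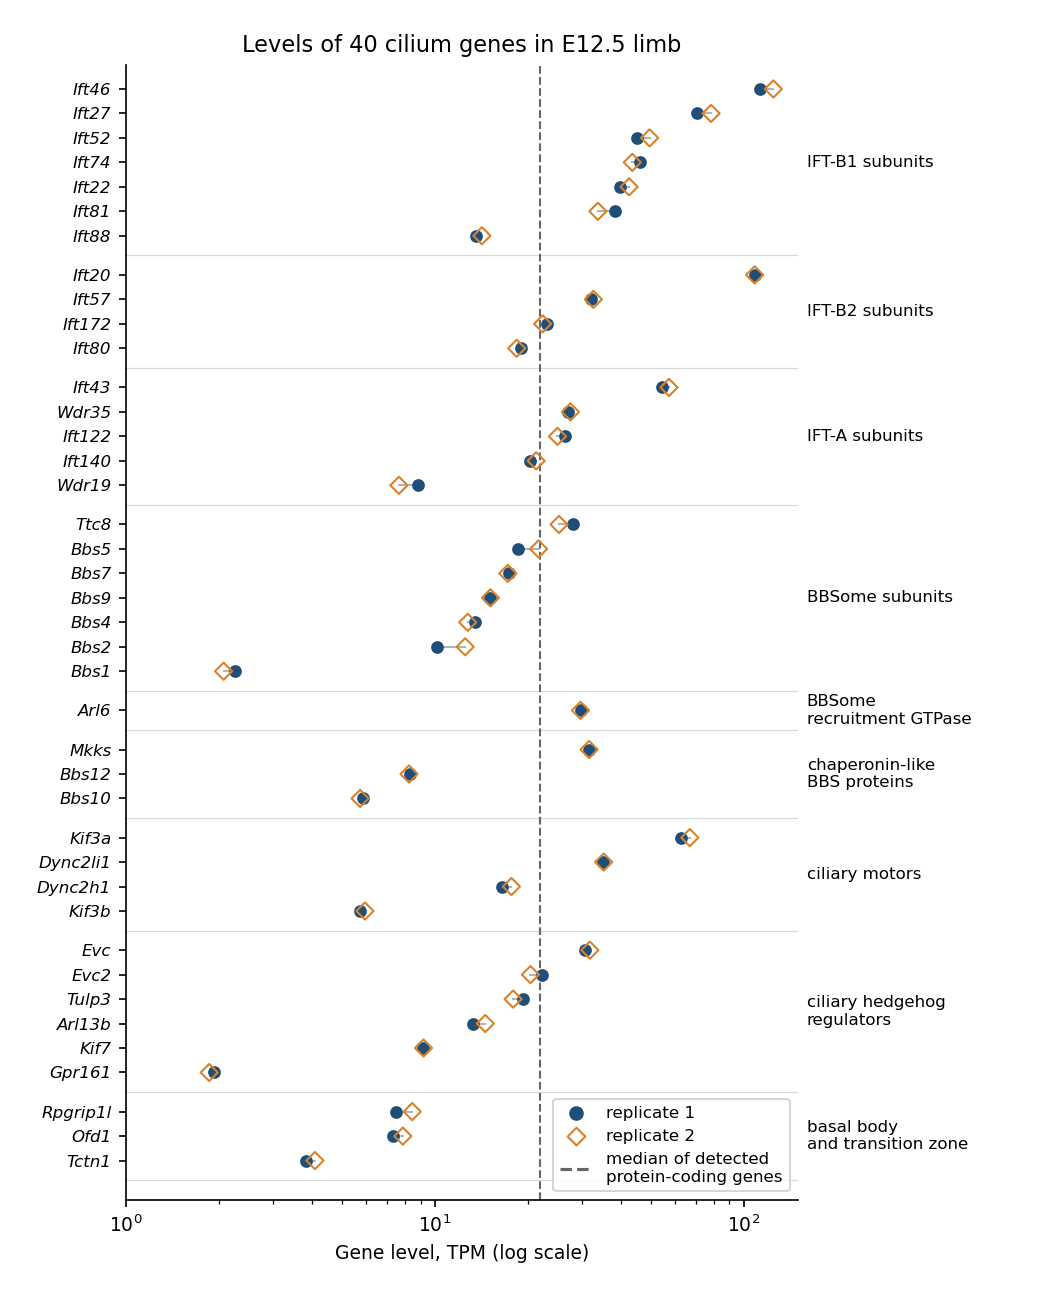
Level of each of the 40 genes in replicate 1 (filled circles) and replicate 2 (open diamonds), in TPM on a log axis, grouped by role and sorted within each role. The dashed line is the median of detected protein-coding genes, 21.9 TPM. The 2 symbols of a gene lie close together relative to the range over the 40 genes. Of the 39 pairs of neighbours in the order of levels, 24 were separated in both libraries.

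The IFT-B1 core of the anterograde train had the highest median of the role groups with at least 3 genes, 44.9 TPM. Ift46, whose protein carries axonemal cargo in other organisms, was measured at 113.03 TPM in replicate 1 and 124.81 in replicate 2. Ift27, a Rab-like GTPase that also helps the BBSome leave the cilium, stood at 70.75 and 78.45. Both were higher in replicate 2 on this scale, and the libraries of the 2 genes did not overlap. Ift52, which links other subunits of the core, was at 45.09 and 49.62 TPM. The tubulin-binding partners Ift74 (46.22 and 43.61) and Ift81 (38.24 and 33.74) were both lower in replicate 2. Ift22, another Rab-like GTPase, lay at 39.84 and 42.57. Ift88, the subunit lost in the classic polycystic kidney mouse, was the lowest of the 7 at 13.57 and 14.21 TPM, so that the core spanned 8.56-fold.

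The IFT-B2 peripheral subunits had a median of 27.5 TPM over 4 genes. Ift20, which also sits at the Golgi and helps to sort ciliary membrane proteins, was at 108.75 and 108.55 TPM, the second highest level of the 40. Ift57 (31.94 and 32.62), Ift172 (23.11 and 22.35) and Ift80 (19.07 and 18.41) followed, each clear of the next. Ift80 is mutated in a human thoracic dysplasia of the skeleton.

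In the IFT-A complex, which drives return transport and admits membrane proteins, the median over 5 genes was 25.7 TPM. The small subunit Ift43 was highest, at 54.41 and 57.33. The peripheral subunit gene Wdr35 (27.09 and 27.49) and the core subunit gene Ift122 (26.49 and 24.96) lay close together, followed by Ift140 (20.34 and 21.29). Wdr19 was the lowest at 8.83 and 7.65 TPM, below both libraries of every other IFT-A gene of the set. The gene Wdr19 (ENSMUSG00000037890.9) is on the plus strand of chromosome 5, at 65199696 to 65260415. With Ttc21b, the sixth IFT-A gene and not one of the 40, the complex had a median of 23.3 TPM. The whole IFT-B complex, counted over 18 gene entries of which 7 are not among the 40, had a median of 27.8 TPM. Its lowest entry was Ttc30a2 at 0.490 TPM, one of 3 near-identical Ttc30 copies between which reads can be split, so that value is uncertain.

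The BBSome subunits were lower, with a median of 15.1 TPM over 7 genes. Ttc8, also called BBS8, was highest at 28.02 and 25.24. Bbs5, which binds phosphoinositides, stood at 18.54 and 21.67, Bbs7 at 17.43 and 17.23, Bbs9, a scaffold subunit, at 15.11 and 15.14, and Bbs4 at 13.46 and 12.78. These 4 ran in small steps, and neighbours in their order did not overlap. Bbs2 was at 10.13 and 12.54. Bbs1, the subunit that contacts the recruiting GTPase, was far below the rest at 2.25 and 2.07 TPM, from 231 and 214 counts. It was 12.3-fold below Ttc8 in TPM. Bbs1 was scaled over a length of 5581 nt, against 2208 and 2231 nt for Ttc8, which had 1107 and 1015 counts. By counts the next subunit above Bbs1 was Bbs5, with 330 and 363, so that part of the gap in TPM came with length scaling. Bbs1 (ENSMUSG00000006464.8) spans chromosome 19 from 4886878 to 4906628 on the minus strand and had a single annotated transcript in the tables. Bbip1, the eighth subunit, is not among the 40 and had 21.4 TPM, which brings the median of the full complex to 16.2. Arl6, the GTPase that recruits the BBSome to membranes, was at 29.68 and 29.64 TPM, above every BBSome subunit of the set in both libraries.

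Mkks, Bbs10 and Bbs12 encode chaperonin-like proteins that assemble the BBSome from its subunits. Mkks stood at 31.47 and 31.59 TPM, Bbs12 at 8.30 and 8.25 and Bbs10 at 5.87 and 5.73. The log2 ratio of Mkks to Bbs10 was 2.42 ± 0.03 (SD, n = 2), and that of Bbs10 to Bbs12 was -0.51 ± 0.02, both on log2 of TPM with a pseudocount of 0.1. The Mkks to Bbs10 ratio was 1.72 on counts without length scaling and 1.05 when only consensus coding transcripts, described further on, were taken. The Mkks gene (ENSMUSG00000027274.12) lies on the minus strand of chromosome 2, at 136873780 to 136891389. The 3 assembly genes were thus in the same order in both libraries.

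The motor genes had a median of 26.1 TPM. Kif3a, a motor subunit of kinesin-II, was at 62.67 and 66.95 TPM, and its partner Kif3b at 5.72 and 5.94. Their log2 ratio was 3.45 ± 0.03, a 10.94-fold difference between genes whose products act as a pair. On counts without length scaling the ratio was 1.86. Kif3a (ENSMUSG00000018395.15) is on chromosome 11 at 53567379 to 53601967 and Kif3b (ENSMUSG00000027475.9) on chromosome 2 at 153291413 to 153333390, both on the plus strand. Kif3c, an alternative partner outside the 40, was at 15.67 and 14.76 TPM, and Kifap3, the non-motor subunit, at 44.82 and 41.78. Dync2h1, the heavy chain of dynein-2, stood at 16.47 and 17.70 TPM, and the light intermediate chain gene Dync2li1 at 35.08 and 35.23, a log2 ratio of -1.04 ± 0.07. By counts without length scaling the order was the reverse, with 1777 and 1920 counts for Dync2h1 and 805 and 814 for Dync2li1, a log2 ratio of 1.19.

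Among the ciliary hedgehog regulators the median was 16.3 TPM over 6 genes. Evc and Evc2 encode partners at the base of the cilium that act downstream of Smo, and their loss causes Ellis-van Creveld syndrome, with short limbs and extra digits. Evc was measured at 30.67 and 31.77 TPM and Evc2 at 22.17 and 20.41, a log2 ratio of 0.55 ± 0.12. That direction was not stable: the ratio was 0.03 on counts without length scaling and -0.34 on consensus coding transcripts. The genes lie head to head on chromosome 5 of mm10, Evc at 37289098 to 37336894 on the minus strand and Evc2 at 37338499 to 37425055 on the plus strand, with 1604 bases between them. Tulp3, an adapter that brings receptors into the cilium on IFT-A, was at 19.33 and 17.93. Arl13b, a GTPase of the ciliary membrane, was at 13.33 and 14.57, and Kif7, the kinesin that organises the ciliary tip and restrains Gli activity, at 9.14 and 9.19. Gpr161, a receptor that keeps the pathway off by raising cyclic AMP, was the lowest of the 40 at 1.93 and 1.86 TPM, from 244 and 237 counts over 6862 nt. The level of the adapter gene Tulp3 was thus well above that of its cargo gene Gpr161 in both libraries.

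The basal body and transition zone genes were the lowest group, with a median of 7.59 TPM over 3 genes. Rpgrip1l, which anchors the transition zone gate, was at 7.48 and 8.45 TPM, Ofd1, a centriole protein encoded on the X chromosome, at 7.31 and 7.88, and Tctn1, a tectonic of the gate, at 3.83 and 4.09. The first 2 overlapped each other and both lay above Tctn1. Of 11 partner and family pairs set side by side, 3 differed more than 2-fold in the same direction in both libraries: Kif3a over Kif3b, Mkks over Bbs10 and Arl13b under Arl6 (-1.08 ± 0.09). In replicate 1 alone the count was 5, with Bbs4 under Ttc8 (-1.05) and Dync2h1 under Dync2li1 (-1.09) added, and with a pseudocount of 1 it was 2. On counts without length scaling Arl13b and Arl6 were nearly equal, at -0.06. Wdr35 and Ift122, with a ratio of 0.09 ± 0.08, differed by about their spread.

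These gene levels add up every annotated transcript, and 29 of the 40 genes had more than 1. GENCODE marks part of the coding transcripts as consensus coding (the CCDS tag, given where several annotation groups hold the same coding sequence). All 40 genes but Ift22 had such a transcript. For the 29 genes the consensus coding transcripts held a median of 78.8% of the gene's TPM. They held more than 90% in both libraries in 6 genes, among them Kif7, Gpr161, Bbs12 and Arl6, and less than 50% in both libraries in 6 others: Ift46, Ift57, Mkks, Evc, Dync2h1 and Rpgrip1l. By expected counts, where short transcripts weigh less, the consensus coding share was 92.3% and 92.5% in Rpgrip1l, 79.8% and 78.1% in Ift46 and 78.0% and 80.0% in Evc. It was 73.0% and 72.5% in Mkks, 59.0% and 57.5% in Dync2h1 and 37.5% and 41.6% in Ift57, so Ift57 alone of the 6 stayed under 50% on both scales. A transcript without the tag can still be coding. All coding transcripts together held 91.6% and 87.4% of the TPM in Ift57, 91.3% and 92.1% in Ift46 and 97.1% and 98.3% in Rpgrip1l. They held 81.1% and 75.8% in Dync2h1, 69.6% and 67.2% in Evc, but only 38.7% and 38.0% in Mkks.

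**Figure D2:**
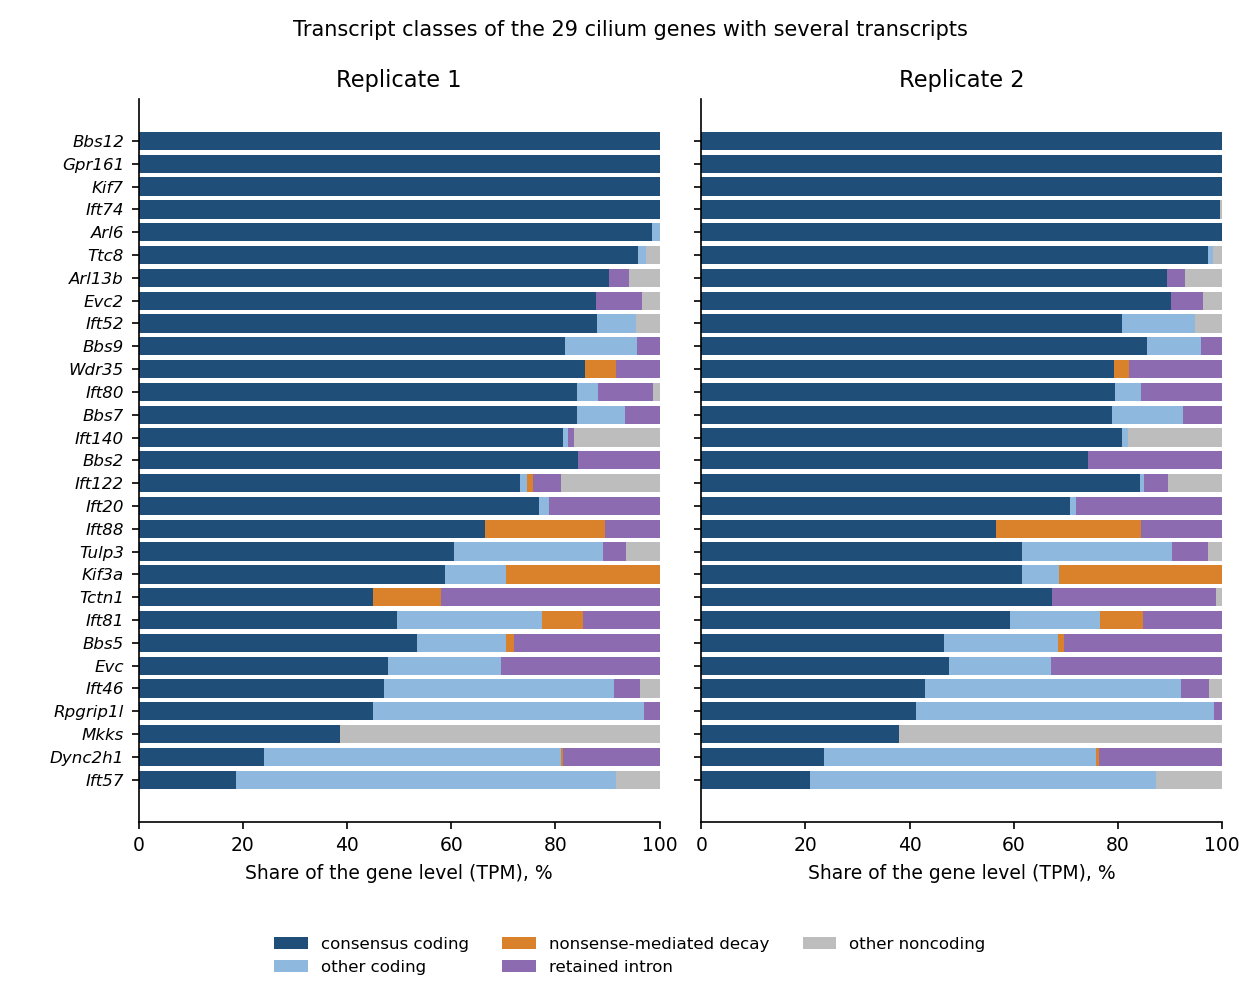
Share of each gene's TPM, in percent, held by 5 classes of transcript in replicate 1 (left) and replicate 2 (right), for the 29 genes with several transcripts, sorted by the consensus coding share. The dark part of each bar is the consensus coding share, which runs from all of Kif7 to 18.8% and 20.8% of Ift57.

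The leading transcript, the one with the most TPM, was the same in both libraries in 26 of the 29 genes and differed in Ift20, Ift57 and Ift122. It was noncoding or annotated for decay in both libraries in 2 genes. In Mkks, a processed transcript of 810 nt without a reading frame held 61.3% of the TPM in replicate 1 and 62.0% in replicate 2. It had 256.9 and 262.56 expected counts, against 615.31 and 619.15 for the longest coding transcript, of 3178 nt. So the coding transcript led by counts and the short one by TPM. In Kif3a, a nonsense-mediated decay transcript of 770 nt held 29.5% and 31.3%, with 18.51 and 20.94 TPM, just ahead of the next, a coding transcript in each library (17.35 and 20.46 TPM). In Dync2h1, a coding transcript of 2892 nt held 57.0% and 52.2% of the TPM, while the 2 full-length consensus transcripts together held 24.1% and 23.6%.

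On the consensus coding scale the median of the genes other than Ift22 was 13.1 TPM, and the order changed in part, with a Spearman correlation of 0.88 to the gene levels. Ift57 went from 32.3 to 6.39 TPM, Dync2h1 from 17.1 to 4.07, Mkks from 31.5 to 12.1 and Ift46 from 119 to 53.5. Ranks shifted by 5 or more places in 9 genes. Ift20 (80.2 TPM) and Ift27 (74.6) then stood above Ift46. The Evc to Evc2 ratio was -0.34 ± 0.08 (log2), as Evc kept 47.7% of its TPM and Evc2 88.9%. Kif3a remained above Kif3b, at 2.72 ± 0.08. IFT-B1 stayed the highest role group (42.3) and the basal body and transition zone group the lowest (3.42). This scale was chosen after the data had been seen.

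**Figure D3:**
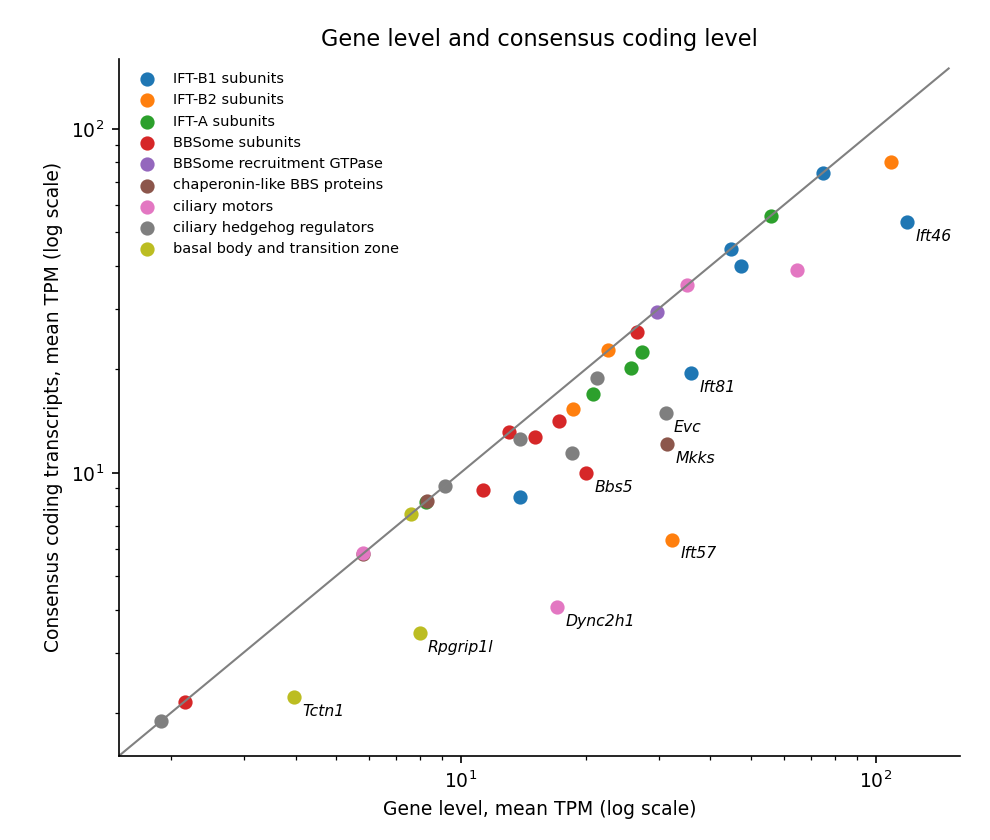
Mean gene TPM (horizontal) against mean TPM of consensus coding transcripts (vertical) for 39 genes, both on log axes and coloured by role. The line marks equality. Genes far under the line, such as Ift57 (32.3 and 6.39 TPM) and Dync2h1 (17.1 and 4.07), owe most of their TPM to other transcripts. By expected counts, the consensus coding transcripts of Dync2h1 held 59.0% and 57.5%.

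Small stretches of coding sequence were present in some coding transcripts of a gene and absent from others. They are printed from GENCODE M21 transcripts (mm10, plus strand), with the stretch in capitals and its coding neighbours in lower case. The shares given next sum the TPM of whole consensus coding transcripts with and without each stretch, not reads over the stretch. The Ttc8 exon of 30 nt lies on chromosome 12 at 98937120 to 98937149. The Kif3a exon of 9 nt lies on chromosome 11 at 53590717 to 53590725, and a stretch of 21 nt at the start of the next exon at 53593374 to 53593394. The Ift122 bases (3 nt at an exon edge) lie on chromosome 6 at 115916970 to 115916972.
Ttc8 exon: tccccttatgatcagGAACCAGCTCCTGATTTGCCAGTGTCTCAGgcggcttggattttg
Kif3a exon of 9: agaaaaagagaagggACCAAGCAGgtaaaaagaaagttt
Kif3a stretch of 21: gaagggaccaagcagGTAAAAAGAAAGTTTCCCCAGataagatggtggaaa
Ift122 bases: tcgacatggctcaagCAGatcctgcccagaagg

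The Ttc8 exon is known from photoreceptors, where the retina includes it. In the limb, the transcript with it had 2.18 TPM in replicate 1 and 1.31 in replicate 2, against 24.7 and 23.2 for the transcript without it. It was thus in 8.11% and 5.33% of the consensus coding TPM, a small share in both libraries. For Kif3a the libraries disagreed: transcripts with the 9 nt exon held 65.3% in replicate 1 and 90.8% in replicate 2, and those with the 21 nt stretch 81.9% and 50.4%. Ift122 transcripts with the 3 extra bases held 39.0% and 62.5%. The quantifier divided reads between whole transcripts, which can also differ outside the stretch. The Ift122 transcripts with and without the bases are 4056 and 4122 nt long. So the Kif3a and Ift122 shares are estimates whose error is unknown, and no difference between libraries is claimed for them.

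Of the 40 genes, 9 share exon bases with a gene on the opposite strand, and whether reads were counted by strand was not given in the sources used here. Shared stretches were longest, at 1229 nt, between Tctn1 and Hvcn1 (7.96 and 6.78 TPM). Kif7 and the antisense gene 9330171B17Rik (0.45 and 0.51 TPM) shared 394 nt, Bbs4 and Adpgk 178 nt, Mkks and Slx4ip 172 nt, Ift57 and the antisense gene Gm15518 132 nt, and Ofd1 and Trappc2 131 nt. In GENCODE M21, 2 of these genes also share exon bases with genes on their own strand, which counting by strand does not separate. Mkks shares 369 nt with AL731706.1 and 180 nt with AL731706.2, and Bbs12 shares 32 nt with Gm43439. These same-strand genes were not among the Ensembl genes measured here and have no counts. Tctn1 had 124.68 and 149.96 counts against 396.77 and 340.22 for Hvcn1, and the part of reads from the shared stretch in the Tctn1 level was not tested.

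Between the libraries the 40 genes moved little. Counts were scaled by the totals over Ensembl genes and each gene tested with an exact conditional binomial test, adjusted over all genes by Benjamini-Hochberg, which covers counting error only and compares these 2 libraries, not conditions. Of 18580 genes tested, 317 (1.71%) passed both limits, an adjusted p below 0.05 and a 2-fold difference or more, and none of the 40 did. At an unadjusted p under 0.05 the exact binomial test held 5 of the 40, beside 26.7% of all genes tested. The exact test of edgeR called 0 of the 40 and 0 of all genes, with 0 and 173 at an unadjusted p under 0.05. With no fold limit, 2975 of all genes (16.0%) passed and 1 of the 40, Wdr19, which was 0.22 lower (log2) in replicate 2, with 712 and 621 counts and an adjusted p of 0.0423 from the exact binomial test. In that direction 9.06% of all genes passed, and in the other 6.95% of all genes and 0 of the 40. Both the balance and the gene depended on scaling: of the genes past the adjusted p, 43.4% were higher in replicate 2, against 48.1% with TMM and 54.2% with DESeq2 size factors. Wdr19 no longer passed with TMM, where none of the 40 did, or with DESeq2 size factors, where Ift27 and Kif3a did.

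The log2 differences of the 40 ran from -0.22 (Wdr19) to 0.24 (Tctn1), with 18 genes higher and 22 lower in replicate 2. Their median size was 0.057, against 0.122 over all genes tested and 0.092 over the 8412 genes with counts in the range of the 40, where 0.392% were called. Ift27 (0.14), Ift74 (-0.13), Kif3a (0.10) and Ttc8 (-0.15) were the other genes under an unadjusted 0.05 in the exact binomial test, with adjusted p of 0.0842, 0.0598, 0.109 and 0.102. The biological coefficient of variation, a measure of spread beyond counting estimated by edgeR from the 2 libraries as replicates, had a median of 0.0665 over the 40 genes, and 0.0765 over 16488 genes. Among the 12244 genes that had 100 or more counts in each library, all 40 included, the order was the reverse, at 0.0658 and 0.0636. In the same libraries, 8 of the 10 tested hedgehog core genes were lower in replicate 2 at an adjusted p under 0.05, with a median of -0.27, beside 9.06% of all genes in that direction, and no core gene was called at 2-fold. With DESeq2 size factors the count was 7 and the median -0.25. Of the 8 limb markers, 5 were higher in replicate 2 and 1, Tbx5 (-0.56), lower by the same test, and their part in these differences was not tested. The 6 ciliary regulators of that pathway ran from -0.10 (Evc2) to 0.10 (Arl13b), and none passed. Whether the 2 groups differ was not tested.

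**Figure D4:**
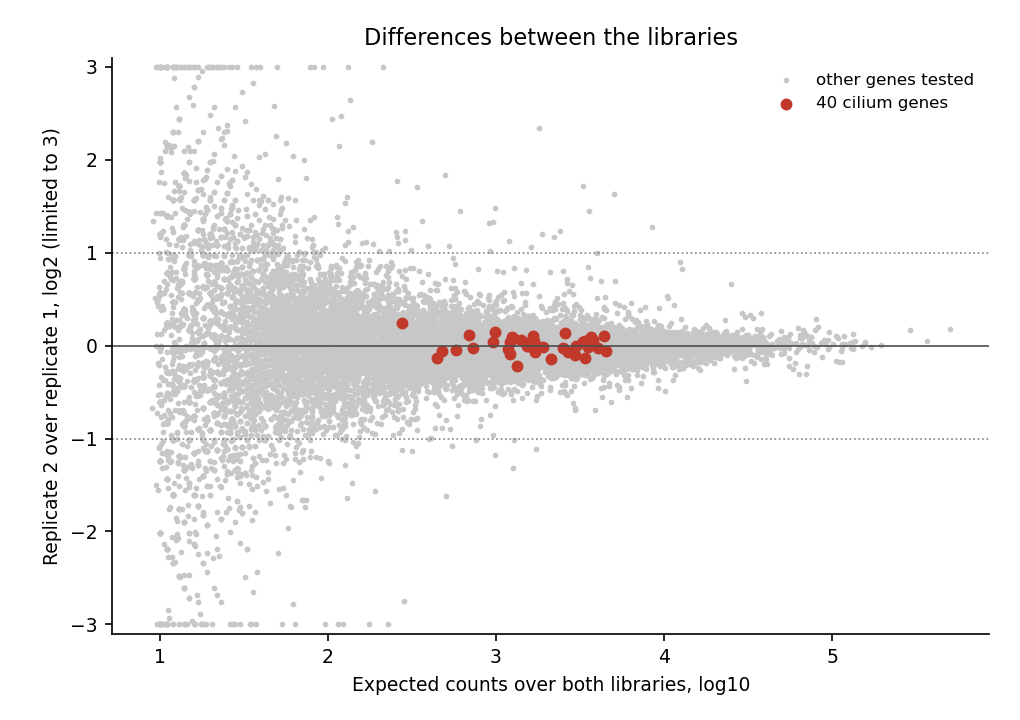
Log2 ratio of replicate 2 to replicate 1 (vertical, values beyond 3 drawn at 3) against the expected counts of both libraries together (horizontal, log10), for all genes tested (grey) and the 40 cilium genes (red). Dotted lines mark 2-fold. The 40 genes lie between -0.22 and 0.24, and none reaches 2-fold.

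RNA of most other cilium genes examined was detected as well. Of 62 such genes in 6 lists, 60 were detected, against 59.2% of all protein-coding genes. None was called between the libraries, against 1.71% of all genes tested. The lists were chosen with earlier results of these data known, so these counts are descriptions only. The adjusted p alone was passed by 10, a share like the 16.0% of all genes. The 8 other IFT subunits had a median of 10.7 TPM, with Hspb11 highest (39.8), and the 4 other BBSome genes 43.7, with the E3 ligase gene Trim32 highest (48.9). The 8 other motor genes ran from Kif17 (0.985) to the dynein light chain gene Dynll1 (1545), whose product also serves cytoplasmic dynein. The 16 other transition zone genes had a median of 12.5 TPM, with Nphp4 lowest (3.33) and Iqcb1 highest (61.3). The 12 appendage and basal body genes had 26.3, from Ttbk2 (5.79) to Odf2 (78.3), and the 14 membrane and cargo genes 28.3, from Pkd1 (9.82) to Arl2bp (148).

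Genes of motile cilia, photoreceptors and kidney tubules, which stand for other ciliated cells, were mostly low. Neuron markers, another such list, had 6 of 8 detected and a median of 7.49 TPM. Of 18 motile cilium genes 4 were detected, with a median of 0.235 TPM. Tekt2, a tektin of the axoneme, was highest at 11.8, whereas Mcidas, a regulator of multiciliated cells, was at 0. Photoreceptor genes had 2 of 9 detected, with Rom1 highest (2.06) and Crx at 0, and kidney tubule markers 0 of 6. The master regulator of motile cilia, Foxj1, had 7 counts in each library, or 0.15 TPM. Foxj1 was named after its value was seen.

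**Figure D5:**
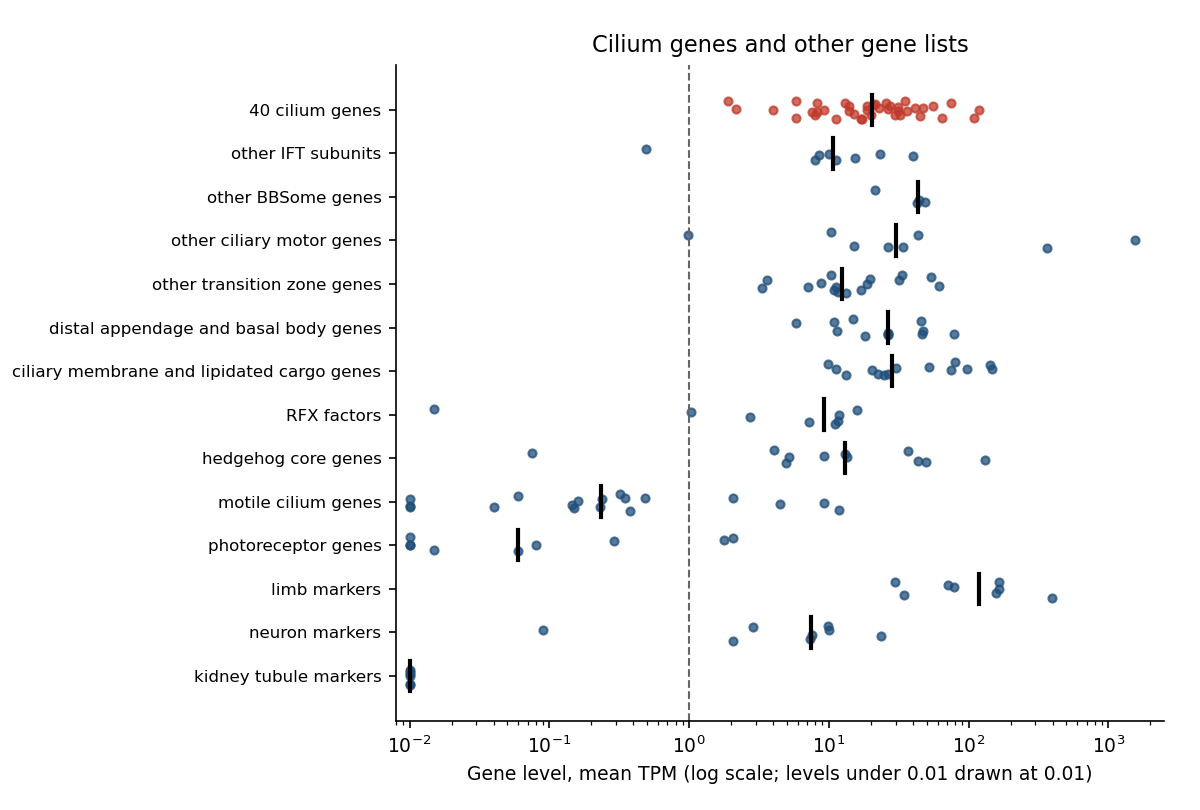
Mean TPM of each gene (log axis, levels under 0.01 drawn at 0.01) in the 40 cilium genes (red) and 13 other lists (blue), with a black bar at each median. The dashed line is 1 TPM. Lists of primary cilium parts sit mostly right of the line, and motile cilium, photoreceptor and kidney tubule lists mostly left of it.

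RFX factors bind the X-box, a palindromic promoter motif of ciliary genes. Of the 8 RFX genes examined, 6 were detected, led by Rfxank (15.9 TPM), which belongs to a complex at other promoters, and the lowest was Rfx6 (0.0150). The RefSeq table (GRCm38.p6) held 38 promoters of 36 of the 40 genes, each from 250 bases before to 50 after the start; Ift80, Ift81, Dync2li1 and Ift122 were not matched. The X-box was searched on both strands, as its 2 arms with 0 to 3 bases between. It occurred in 3 of the 38 promoters (7.89%), those of Ift57, Tctn1 and Bbs1, against 1.53% of 32851 promoters in the table and 1.56% of the 12779 promoters of detected protein-coding genes. With a gap of 0 to 1 bases only, it was in 1 of the 38 (2.63%, interval 0.0666 to 13.8), against 0.706% and 0.509%. The letters GTTGCC of 1 arm, on either strand and overlapping the X-box where that occurs, was in 14 of the 38 (36.8%), against 12.5% and 12.4%. Matches in 5 genes are shown in capitals in 30 bases of the promoter, because they are the letters counted.
Ift57, X-box: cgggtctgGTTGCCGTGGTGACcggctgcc
Tctn1, X-box: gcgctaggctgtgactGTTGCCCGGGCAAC
Bbs1, X-box: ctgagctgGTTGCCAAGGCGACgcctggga
Kif3a, arm: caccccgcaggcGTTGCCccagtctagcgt
Ift88, arm: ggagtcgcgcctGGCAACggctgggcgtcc

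The Ift57 window lies on chromosome 16 at 49699199 to 49699228 (plus strand), with its match from -87 to -74 relative to the start. The Bbs1 match runs from 2 to 15 after the start (chromosome 19, 4906605 to 4906634, minus strand) and that of Tctn1 from 37 to 50 (chromosome 5, 122264411 to 122264440, minus strand). The Kif3a arm lies on chromosome 11 at 53567259 to 53567288 and that of Ift88 on chromosome 14 at 57424080 to 57424109, both on the plus strand. The 14 genes with a match had a median of 20.5 TPM and the 22 matched genes without one 16.9, a description with no test. The match genes came from 7 of the 9 role groups and from none of the chaperonin-like genes and Arl6. Of the genes with an X-box, Ift57 stood at 32.3 TPM, Bbs1 at 2.16 and Tctn1 at 3.96.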

How the data were processed

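Total RNA was sequenced from 2 limb pools of 1 group. Text files of each sample name mm10 and GENCODE M4 as genome and annotation; for aligner, quantifier and strand, names were not given in the sources used here. What the authors deposited, per the file headers, was expected counts, TPM, FPKM and the percent of a gene held by each transcript. Of 69691 rows, 43346 were Ensembl genes; the others (97 spike-ins and 26248 numeric identifiers) took 3.28% and 2.30% of the counts and were left out of totals and tests. Names and coordinates came from GENCODE M21 by identifier without version (42462 matched), and 183 transcripts of the 40 genes all matched, 164 with the same length.

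Expected counts were rounded for tests. With 1 group, edgeR's quasi-likelihood test had no contrast, so the libraries were compared by the exact conditional binomial test with at least 10 counts over both libraries. The libraries differed beyond sampling noise (18552 genes, chi-square 6.21 for each degree of freedom). The labels call the samples biological replicates, though from 1 donor identifier, and n is 2; the smallest exact sign-flip p is 0.5, so levels carry no test. The 95% exact intervals hold counting error alone, as PCR copies could not be removed without molecular identifiers. The test was tried on simulated counts that held sampling noise only. That trial therefore cannot show its error rate for these libraries, which differed beyond sampling noise. The genes named are the 40, the highest and lowest of each other list, and genes a result turns on. The members and lists were chosen with earlier results of these data known. Alternatives changed unit, threshold, scaling, filter, pseudocount and motif gap, and each library was left out in turn. Python 3.11.15 (pandas 2.3.3, scipy 1.17.1, numpy 2.4.6, matplotlib 3.10.9) and R 4.3.3 (DESeq2 1.42.0, edgeR 4.0.16) were used.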

Additional observations from a re-analysis of the deposited data

How the results depend on the processing

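No paired analysis was possible because the labels give 1 group. Of the alternatives to the main values of the comparisons, 38 stayed and 14 moved; of those for single genes and pairs, 181 stayed, 133 moved and 2 reversed. The median level, 20.5 TPM, was 12.9 as FPKM, 21.9 with TPM rescaled over Ensembl genes and 13.1 on consensus coding transcripts, a scale chosen after seeing the data; leaving out a replicate gave 19.8 to 20.9. The fold between the highest and lowest role medians, 5.91, was 4.83 on counts without length scaling, where IFT-A led and the chaperonin-like genes were lowest, and 12.4 on consensus coding transcripts. Pairs over 2-fold, 3, were 5 on consensus coding transcripts and 3 to 5 with a replicate left out. Evc to Evc2 turned to -0.34 (log2) on consensus coding transcripts, and Dync2h1 to Dync2li1 to 1.19 on counts. Genes called between libraries, 317, were 75 with at least 100 counts, 2975 with no fold limit and 0 with edgeR's exact test (173 at unadjusted p under 0.05), whose dispersion came from the same 2 libraries. With no fold limit 1 of the 40 passed (Wdr19), which did not pass with TMM or DESeq2 size factors. The consensus coding share, 78.8%, was 73.3% with posterior mean TPM and 78.8 to 81.5% with a replicate left out. The share of promoters with the motif, 7.89%, was 2.63% with a gap of 0 to 1 bases only and 36.8% for GTTGCC alone. Leaving out a library was impossible for the comparison of libraries. Depth limits precision most for Tctn1 and Bbs1, which had the fewest counts of the 40.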
